A study of Mus musculus with 43 samples.

Results

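The genes described here are the 64 whose FPKM (a read level scaled to gene length and library size) were lowered at least 2-fold by TGFB1 in every one of 3 bulk RNA comparisons in mouse intestinal organoids. They were chosen by measured values: log2 of the mean with TGFB1 plus 1, minus the same for vehicle, was −1 or less in all 3 tables, and the mean was at least 1 FPKM in each. The rule found them among 23951 genes per table, of which 10690 passed the floor with a symbol the rule keeps. Because the rule used these contrasts, the bulk values of the members with TGFB1 are a description and carry no test. The single-cell time course and the sorted crypt cells of irradiated mice are data the rule did not use. The other genes of the pathways were tested in the same 18 libraries and contrasts as the rule, so their calls are not independent of it.

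All organoids were primary intestinal cultures from wild-type C57BL/6 mice, and a group of bulk RNA had 3 libraries. The groups were D7 non-IR (collected on day 7), D7 IR (4 Gy of irradiation on day 4, collected on day 7) and D11 (4 Gy on day 4, collected on day 11), each given vehicle or TGFB1 at 2 ng/mL for 24 h from day 6. The D11 organoids were thus collected some days after the end of the treatment. Single cells came from irradiated D8 organoids (4 Gy on day 4) with vehicle, called 0 h, or with 1 ng/mL TGFB1 for 6, 15 or 24 h, 1 library each. Crypt cells came from mice of the strain Mki67tm1.1Cle/J, which reports Ki67 with a red fluorescent protein, and were sorted as Ki67-RFP+ cells without irradiation (1 library) or 56 h after 12 Gy to the whole body (2 libraries). The labels do not say whether replicates come from separate cultures or mice, so p-values measure the spread between these libraries, which may be technical.

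TGFB1 is a secreted ligand that binds a pair of serine/threonine kinase receptors and acts through SMAD transcription factors, and in gut epithelium it is known for restraining proliferation and for its part in repair. Absorptive enterocytes take up nutrients and also detoxify: carboxylesterases cleave esters, cytochrome P450 enzymes oxidise, and glutathione, glucuronic acid or sulfate are then attached so that compounds can be exported. Enterocytes also run part of the urea cycle, which makes citrulline and arginine from ammonia and glutamine.

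By role, 13 members belong to drug and toxin metabolism, 7 to retinoid, aldehyde and lipid metabolism, and 7 to nitrogen, amino acid and central metabolism. A mixed role of 6 holds peptidases, absorptive surface proteins and Sycn of secretory granules. There were 5 channels and transporters, 7 signalling ligands and receptors, and 6 transcription and nucleic acid factors. The remaining 13 fit none of these. Several members lie side by side in the RefSeq gene order: Ces1d, Ces1e and Ces1f on chromosome 8, Gstm1 and Gstm4 (with Gstm3 1 gene away) on chromosome 3, and Tmem237 and Mpp4 on chromosome 1. The Ces1, Gstm, Ugt and Akr1c genes have close copies, and the sources used here do not say how reads shared between copies or between overlapping neighbours were assigned, so the split of reads within these families is uncertain.

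Promoter sequences are shown for some members with the lowest median change, to set out the stretches upstream of genes lowered together. RefSeq promoters (build GRCm38.p6) matched 53 of the 64 members. Of the 12 members with the lowest median change, Otc, Gstm3, Akr1c14 and Rgcc are printed, each as the 250 bases before the start site, 5′ to 3′ on the gene's strand. Capitals mark matches to a motif searched on both strands.
Otc, chrX:10252055-10252304 (plus strand): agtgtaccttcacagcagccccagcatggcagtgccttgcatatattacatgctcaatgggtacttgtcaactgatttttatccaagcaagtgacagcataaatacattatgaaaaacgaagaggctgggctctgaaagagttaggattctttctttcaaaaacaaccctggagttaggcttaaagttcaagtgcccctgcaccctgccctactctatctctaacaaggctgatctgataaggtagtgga
Gstm3, chr3:107969175-107969424 (minus strand): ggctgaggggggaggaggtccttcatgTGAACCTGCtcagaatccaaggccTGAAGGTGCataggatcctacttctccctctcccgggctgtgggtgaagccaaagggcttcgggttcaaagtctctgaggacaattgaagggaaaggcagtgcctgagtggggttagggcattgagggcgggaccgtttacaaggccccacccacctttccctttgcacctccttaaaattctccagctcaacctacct
Akr1c14, chr13:4059341-4059590 (plus strand): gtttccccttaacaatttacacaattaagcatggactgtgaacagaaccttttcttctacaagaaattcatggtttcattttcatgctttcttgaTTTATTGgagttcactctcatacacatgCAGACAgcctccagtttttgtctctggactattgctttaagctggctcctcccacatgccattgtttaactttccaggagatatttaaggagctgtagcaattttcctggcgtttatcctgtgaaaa
Rgcc, chr14:79301636-79301885 (minus strand): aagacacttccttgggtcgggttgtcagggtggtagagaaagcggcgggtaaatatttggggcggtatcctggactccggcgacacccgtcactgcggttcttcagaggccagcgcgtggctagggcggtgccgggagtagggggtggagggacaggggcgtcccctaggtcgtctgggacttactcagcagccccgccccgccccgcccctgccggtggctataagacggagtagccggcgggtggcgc
Matches to 8 motifs were searched over 300 bases per promoter (250 before the start and 50 after), with 1 promoter per gene. The site of the enterocyte factor HNF4 was searched as AAAGTCCA, and HNF1 is given by name. The intestinal homeobox factor CDX was searched as TTTATNG. A further form of the CDX site was TTTACNG. The site of AP-1, a factor of growth and stress responses, was TGANTCA. The antioxidant element, bound by NRF2, was searched as TGANNNNGC. The SMAD box, bound by the factors downstream of TGFB1, was CAGACA. The site of GATA factors was searched as AGATAA. The TATA box of core promoters was TATAAA. The CDX and TATA patterns overlap in part. The capitals in Gstm3 are both matches to the antioxidant element, and those in Akr1c14 are a CDX and a SMAD box match, while the stretches of Otc and Rgcc hold no match. The shares were near those of all 27025 promoters for most motifs. The antioxidant element was found in 47.2% of members and 41.4% of all promoters, the SMAD box in 15.1% of members and 21.03% of all promoters, and the CDX pattern in 18.9% of members and 19.1% of all promoters. GATA was found in 18.9% of members and 11.4% of all promoters, AP-1 in 5.66% of members and 7.93% of all promoters, and TATA in 11.3% of members and 14.2% of all promoters. The HNF4 pattern was found in 2 members (3.77% of members and 1.25% of all promoters) and HNF1 in 1 (1.89% of members and 0.437% of all promoters), too few to read. ATAC peaks at these promoters were not analysed here, because the peak lists are not in the build of the start sites used here.

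As a whole, the members summed to 3705 to 3772 FPKM in the vehicle libraries of D7 non-IR and to 1118 to 1160 FPKM with TGFB1. The sums were 5285 to 5371 against 1723 to 1873 FPKM in D7 IR, and 5055 to 5700 against 1459 to 1551 FPKM at D11. The 3 vehicle and 3 TGFB1 libraries of a table did not overlap for any of the 64 members, which the rule itself favours. The median member change was −1.59 in D7 non-IR, −1.43 in D7 IR and −1.85 at D11 (log2 of FPKM + 1), beside medians of −0.02, −0.03 and 0.01 over all genes past the floor. Genes at −1 or less made up 2.88% of the 10690 in D7 non-IR (308), 5.43% in D7 IR (580) and 7.77% at D11 (831), and the 64 members are those shared by all 3. For 34 members the change was largest at D11, for 15 in each D7 table. At −2 or less stood 15 members in D7 non-IR, 8 in D7 IR and 27 at D11, and Ces1d and Aqp1 did so in all 3. In bulk samples, fewer cells of a type and less RNA per cell cannot be told apart.

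**Figure D1:**
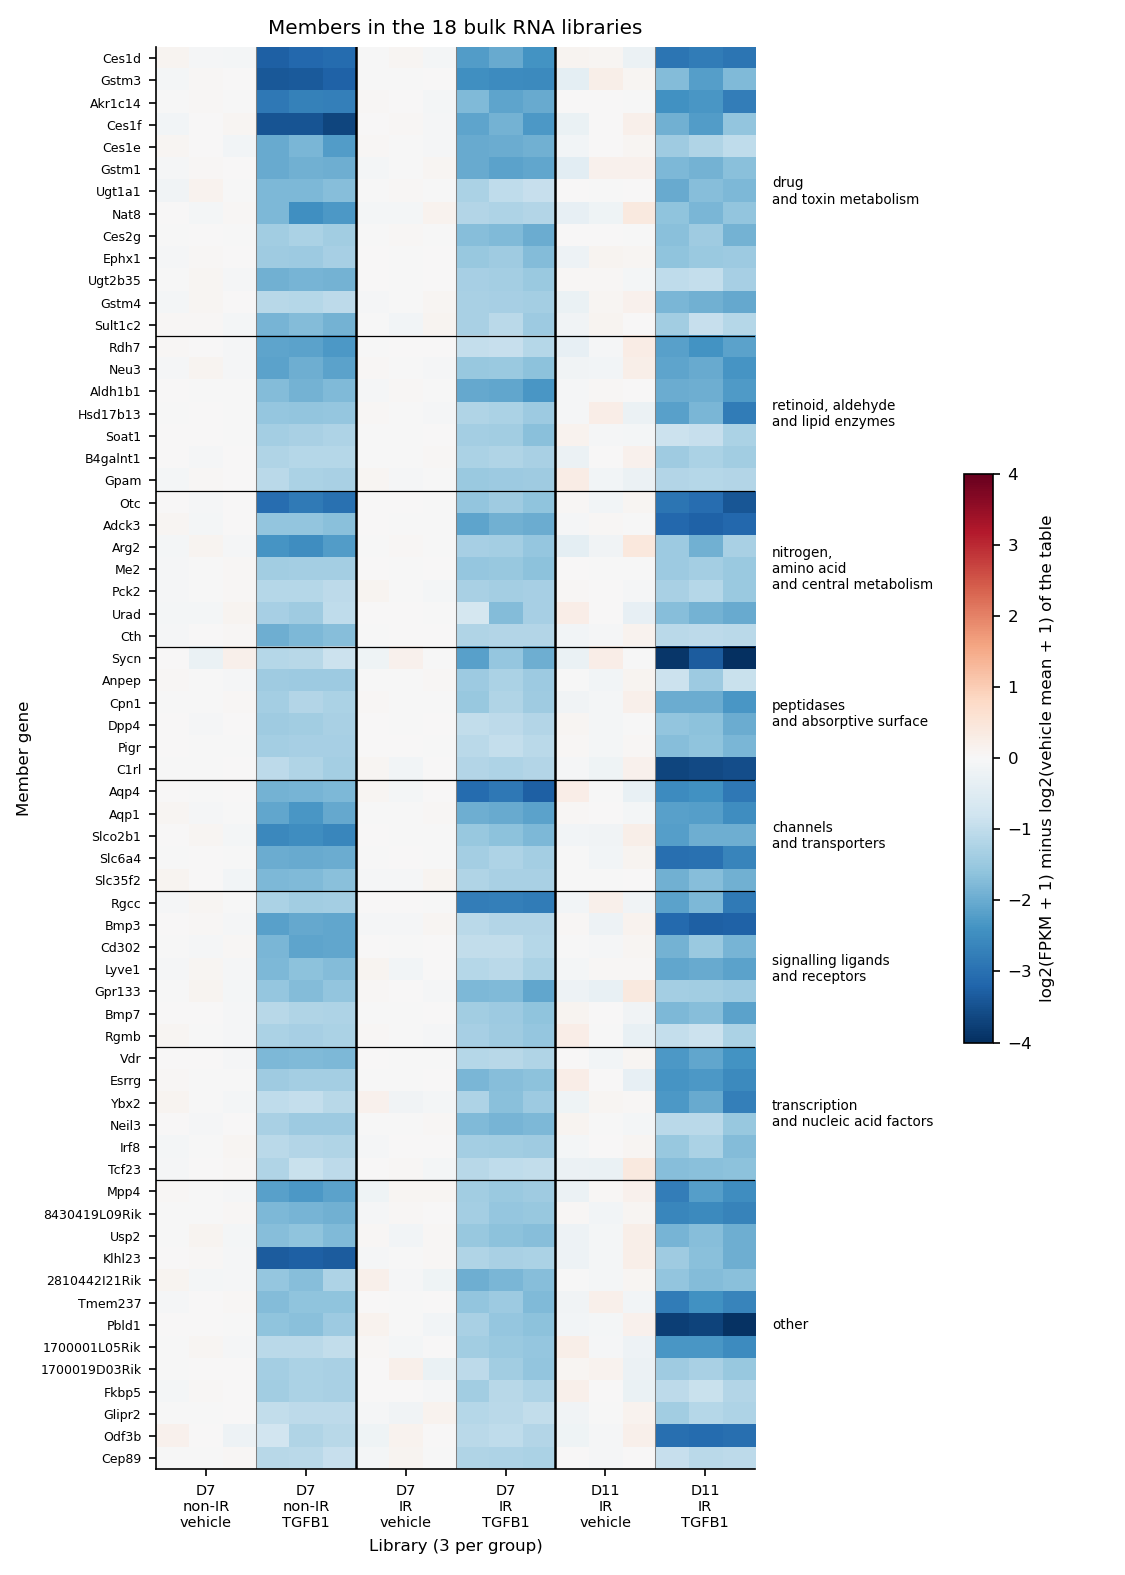
Each row is a member and each column 1 of the 18 bulk RNA libraries; colour is log2(FPKM + 1) minus log2 of the vehicle mean + 1 of the same table, and lines separate the roles. In each row the TGFB1 libraries lie below the vehicle libraries of the same table, which the rule on group means favours. The change was largest at D11 for 34 of the 64 members.

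Among the drug-metabolising members, Ces1d, Gstm3 and Akr1c14 had the lowest median changes. Ces1d measured 35.9, 32.1 and 30.9 FPKM with vehicle and 2.55, 2.86 and 3.05 FPKM with TGFB1 in D7 non-IR organoids. Ces1d in D7 IR organoids stood at 13.6, 14.6 and 12.95 FPKM against 2.11, 2.60 and 1.80 FPKM. Ces1d at D11 was listed at 42.4, 41.4 and 33.0 FPKM with vehicle and 4.31, 4.70 and 4.27 FPKM with TGFB1. Ces1d, which hydrolyses esters and triglycerides, kept 8.55, 15.8 and 11.4% of its vehicle mean, and all 9 TGFB1 libraries lay below all 9 vehicle libraries. Ces1f measured 25.2, 27.4 and 28.6 FPKM with vehicle and 1.55, 1.57 and 1.23 FPKM with TGFB1 in D7 non-IR organoids. Ces1f in D7 IR organoids stood at 64.6, 66.3 and 62.9 FPKM against 14.3, 16.6 and 12.3 FPKM. Ces1f at D11 was listed at 37.8, 46.2 and 51.7 FPKM with vehicle and 11.3, 8.77 and 14.4 FPKM with TGFB1. Its neighbour Ces1f, another carboxylesterase, had the lowest single change of the members in D7 non-IR (log2 −3.52). Gstm3 measured 211, 232 and 229 FPKM with vehicle and 20.6, 20.9 and 23.0 FPKM with TGFB1 in D7 non-IR organoids. Gstm3 in D7 IR organoids stood at 527, 537 and 547 FPKM against 97.4, 92.4 and 90.1 FPKM. Gstm3 at D11 was listed at 244, 378 and 337 FPKM with vehicle and 94.7, 68.6 and 93.6 FPKM with TGFB1. Gstm3, a mu class glutathione transferase, kept 9.61% in D7 non-IR and 26.8% at D11. Akr1c14 measured 32.9, 34.6 and 33.1 FPKM with vehicle and 3.80, 4.33 and 4.17 FPKM with TGFB1 in D7 non-IR organoids. Akr1c14 in D7 IR organoids stood at 30.3, 29.5 and 27.7 FPKM against 7.78, 5.92 and 6.44 FPKM. Akr1c14 at D11 was listed at 29.9, 29.6 and 28.9 FPKM with vehicle and 4.68, 5.10 and 3.499 FPKM with TGFB1. Akr1c14 is an aldo-keto reductase acting on steroids, and its vehicle level was nearly the same in the 3 tables. Ces1e (log2 changes −2.02, −1.98 and −1.21), Ces2g (−1.35, −1.81 and −1.65), Gstm1 (−1.962, −2.08 and −1.79) and Gstm4 (−1.10, −1.33 and −1.93) completed these families. The conjugating enzymes Ugt1a1, which glucuronidates bilirubin (−1.77, −1.07 and −1.83), Ugt2b35 (−1.90, −1.38 and −1.09) and Sult1c2, a sulfotransferase (−1.83, −1.27 and −1.13), were also lower. Ephx1, the microsomal epoxide hydrolase, went from 309 ± 36.9 to 107 ± 6.13 FPKM at D11 (SD, n = 3), with changes of −1.40, −1.55 and −1.52. Nat8, an acetyltransferase of the mercapturic acid route, had changes of −2.16, −1.200 and −1.67.

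Members of nitrogen and amino acid metabolism included an enzyme of the urea cycle and an arginase. Otc measured 59.6, 57.3 and 59.4 FPKM with vehicle and 6.21, 7.505 and 6.62 FPKM with TGFB1 in D7 non-IR organoids. Otc in D7 IR organoids stood at 63.8, 63.5 and 62.0 FPKM against 20.4, 22.7 and 19.8 FPKM. Otc at D11 was listed at 59.2, 53.2 and 60.6 FPKM with vehicle and 6.68, 6.14 and 4.46 FPKM with TGFB1. Otc makes citrulline from ornithine and carbamoyl phosphate, and had the lowest median change of all members (−2.94). Arg2, the mitochondrial arginase, measured 15.3, 17.5 and 15.7 FPKM with vehicle and 2.32, 2.08 and 2.68 FPKM with TGFB1 in D7 non-IR organoids. Arg2 in D7 IR organoids stood at 205, 215 and 205 against 82.9, 81.1 and 69.9 FPKM, so its irradiated TGFB1 libraries were above its non-irradiated vehicle libraries. Cth, which makes cysteine from cystathionine, had changes of −1.82, −1.18 and −1.06. Pck2 (−1.11, −1.33 and −1.30) and Me2 (−1.36, −1.57 and −1.43), mitochondrial enzymes that make phosphoenolpyruvate and pyruvate, were among the least variable members across tables. Adck3 (Coq8a in RefSeq), needed for coenzyme Q synthesis, was lowered most at D11 (−1.61, −1.999 and −3.17). Urad, of the urate breakdown route, was a low gene (−1.25, −1.19 and −1.87).

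The retinoid and lipid members were led by Rdh7, a retinol dehydrogenase. Rdh7 measured 8.56, 8.30 and 7.85 FPKM with vehicle and 1.16, 1.12 and 0.891 FPKM with TGFB1 in D7 non-IR organoids. Rdh7 in D7 IR organoids stood at 81.2, 84.2 and 83.5 FPKM against 42.0, 43.7 and 37.1 FPKM. Rdh7 at D11 was listed at 22.8, 28.0 and 35.4 FPKM with vehicle and 5.57, 4.64 and 5.73 FPKM with TGFB1. Rdh7 was the member nearest to the threshold (log2 −1.002 in D7 IR), while it kept 12.8% in D7 non-IR. Neu3 measured 15.2, 17.1 and 15.2 FPKM with vehicle and 2.85, 3.32 and 2.82 FPKM with TGFB1 in D7 non-IR organoids. Neu3 in D7 IR organoids stood at 11.9, 11.3 and 11.1 FPKM against 3.40, 3.43 and 3.03 FPKM. Neu3 at D11 was listed at 6.95, 7.21 and 9.32 FPKM with vehicle and 1.05, 1.19 and 0.732 FPKM with TGFB1. Neu3 removes sialic acid from gangliosides, and B4galnt1, which builds them, had changes of −1.16, −1.25 and −1.36. Aldh1b1, a mitochondrial aldehyde dehydrogenase, went from 538 ± 19.1 to 121 ± 13.2 FPKM in D7 IR (SD, n = 3), with changes of −1.79, −2.15 and −2.06. Hsd17b13, a lipid droplet enzyme (−1.56, −1.30 and −2.22), Soat1, which esterifies cholesterol (−1.30, −1.47 and −1.01), and Gpam, the first step of glycerolipid synthesis (−1.22, −1.46 and −1.17), completed this role.

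Channels and surface proteins included both water channels of the list. Aqp4 measured 30.9, 30.3 and 31.1 FPKM with vehicle and 7.66, 7.83 and 8.07 FPKM with TGFB1 in D7 non-IR organoids. Aqp4 in D7 IR organoids stood at 20.1, 18.1 and 19.3 FPKM against 1.39, 1.77 and 1.12 FPKM. Aqp4 at D11 was listed at 27.1, 22.5 and 17.995 FPKM with vehicle and 3.11, 3.36 and 2.25 FPKM with TGFB1. Aqp4 kept 25.5% of its vehicle mean without irradiation and 7.43% in D7 IR. Aqp1 measured 66.0, 60.9 and 62.4 FPKM with vehicle and 14.1, 11.8 and 14.4 FPKM with TGFB1 in D7 non-IR organoids. Aqp1 in D7 IR organoids stood at 39.3, 39.3 and 41.5 FPKM against 9.62, 9.06 and 8.40 FPKM. Aqp1 at D11 was listed at 145, 140.1 and 131 FPKM with vehicle and 29.7, 29.1 and 24.2 FPKM with TGFB1. Aqp1 held nearly the same share in every table (21.3, 22.5 and 19.98%). Slco2b1, an uptake carrier for organic anions (−2.56, −1.65 and −2.03), Slc6a4, the serotonin transporter (−1.998, −1.31 and −2.88), and Slc35f2 (−1.75, −1.26 and −1.85) were the other transporters. Of the surface proteins, Pigr, which carries immunoglobulin A across the epithelium, had the highest level of all members, 1103 ± 60.4 FPKM with vehicle and 336 ± 23.8 FPKM with TGFB1 at D11 (SD, n = 3). The brush border peptidases Anpep (−1.45, −1.39 and −1.04) and Dpp4 (−1.37, −1.06 and −1.73) were lowered less than most. Sycn, of secretory granules, varied most between tables, from −1.03 in D7 non-IR to −3.71 at D11. C1rl, a complement-like protease, went from 14.2, 12.8 and 16.7 to 0.223, 0.272 and 0.328 FPKM at D11, with changes of −1.203, −1.200 and −3.61.

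Signalling members included ligands of the same superfamily as TGFB1. Bmp3 measured 5.79, 5.92 and 5.49 FPKM with vehicle and 0.485, 0.628 and 0.593 FPKM with TGFB1 in D7 non-IR organoids. Bmp3 in D7 IR organoids stood at 18.4, 18.7 and 20.4 FPKM against 8.54, 8.02 and 7.90 FPKM. Bmp3 at D11 was listed at 42.0, 35.0 and 45.5 FPKM with vehicle and 3.85, 3.38 and 3.47 FPKM with TGFB1. Bmp3, a bone morphogenetic protein that antagonises other members of its family, kept 9.92, 42.5 and 8.73%. Bmp7, an activating ligand, had changes of −1.18, −1.47 and −1.86, and Rgmb, a coreceptor for bone morphogenetic proteins, −1.28, −1.43 and −1.02. Rgcc measured 34.1, 37.9 and 34.9 FPKM with vehicle and 14.3, 12.999 and 13.4 FPKM with TGFB1 in D7 non-IR organoids. Rgcc in D7 IR organoids stood at 35.5, 35.6 and 34.4 FPKM against 4.29, 4.47 and 4.15 FPKM. Rgcc at D11 was listed at 23.8, 29.8 and 23.5 FPKM with vehicle and 5.01, 6.61 and 2.78 FPKM with TGFB1. Rgcc is a cell cycle regulator that responds to complement, and its TGFB1 share was 38.0% without irradiation and 12.2% in D7 IR. The adhesion receptor Gpr133 (Adgrd1 in RefSeq, −1.62, −1.87 and −1.40), the lectin Cd302 (−1.99, −1.04 and −1.73) and Lyve1 (−1.72, −1.15 and −2.08) were the others. Among the regulators of transcription, Vdr, the vitamin D receptor, went from 176 ± 3.49 to 78.1 ± 2.52 FPKM in D7 IR (SD, n = 3), with changes of −1.79, −1.16 and −2.24. The orphan nuclear receptor Esrrg (−1.38, −1.72 and −2.40), Irf8 (−1.16, −1.39 and −1.48), the helix-loop-helix factor Tcf23 (−1.04, −1.03 and −1.67), the germ cell protein Ybx2 (−1.03, −1.44 and −2.32) and the DNA glycosylase Neil3 (−1.40, −1.80 and −1.21) were the rest.

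Mpp4 measured 20.9, 20.3 and 19.8 FPKM with vehicle and 3.73, 3.37 and 3.82 FPKM with TGFB1 in D7 non-IR organoids. Mpp4 in D7 IR organoids stood at 2.28, 2.84 and 2.87 FPKM against 0.412, 0.309 and 0.369 FPKM. Mpp4 at D11 was listed at 6.53, 8.14 and 8.97 FPKM with vehicle and 0.296, 0.945 and 0.587 FPKM with TGFB1. Mpp4, a membrane scaffold, shares its place on the chromosome with Tmem237, a ciliary membrane protein (−1.65, −1.60 and −2.62), and both had their highest vehicle level in D7 non-IR. Klhl23 had changes of −3.30, −1.25 and −1.67 on the log2(FPKM + 1) scale, which understates the change at its low vehicle mean of 2.25 FPKM in D7 IR. Its FPKM without the added 1 were 12.8, 6.18 and 5.01 times lower with TGFB1. Pbld1 and Odf3b were lowered most at D11 (−3.81 and −3.04). Just inside the threshold stood Rdh7 (−1.002 in D7 IR), Cep89 (−1.005 at D11), Odf3b (−1.007 in D7 non-IR) and Soat1 (−1.012 at D11). Just outside stood Tgif2 (−0.997 in D7 non-IR), Mgme1 (−0.994, also D7 non-IR), Cyp2c55 (−0.991 in D7 IR) and Cyp4b1 (−0.980 in D7 non-IR).

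**Figure D2:**
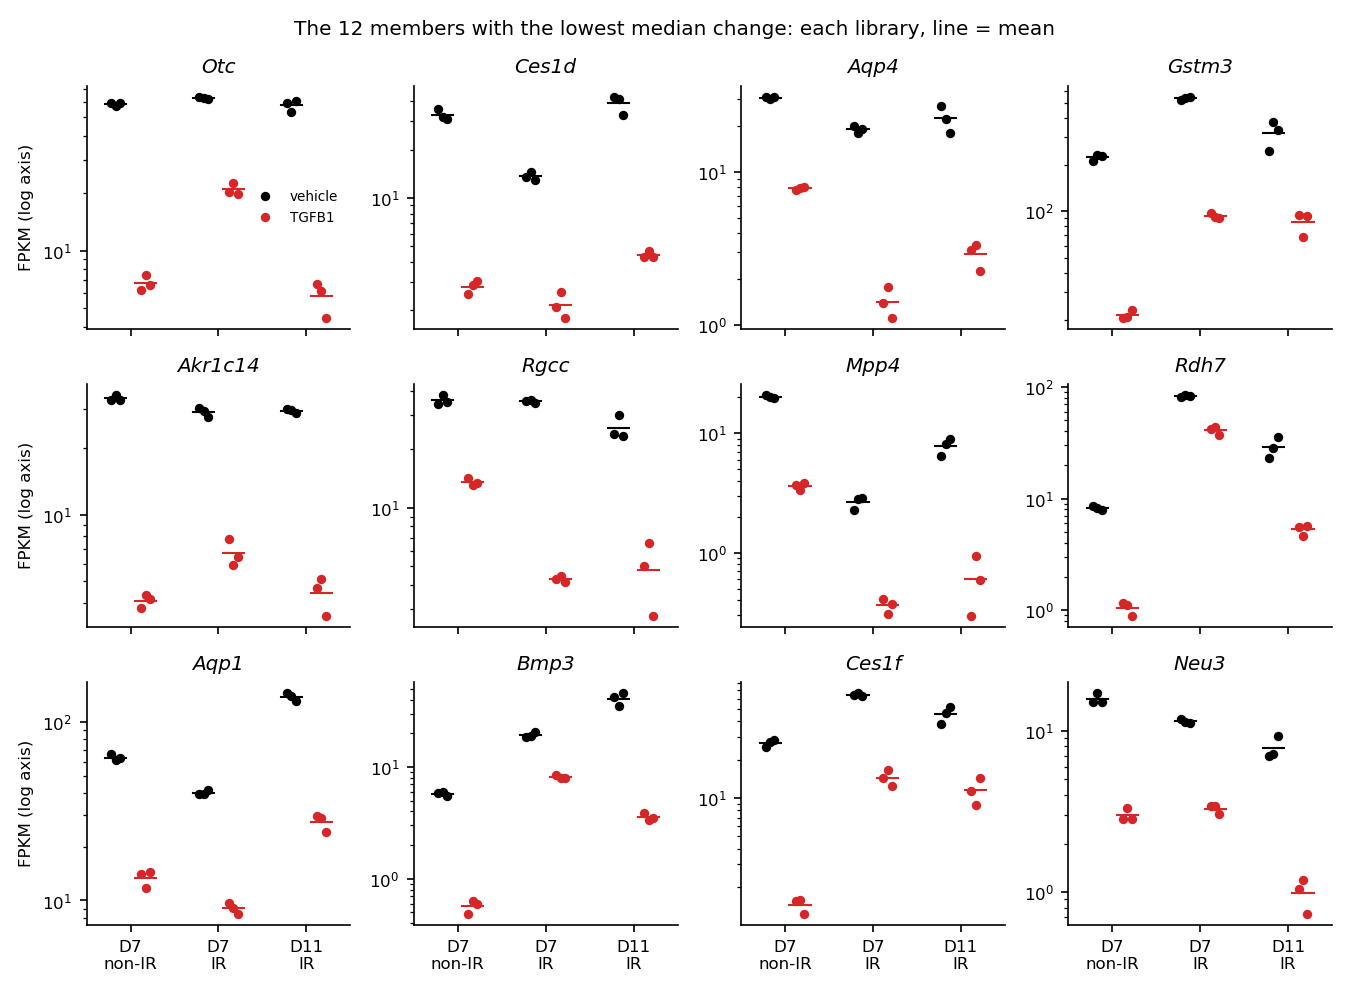
FPKM (log axis) of the 12 members with the lowest median change, in vehicle (black) and TGFB1 (red) libraries of the 3 tables; points are libraries and lines are means of 3. In each panel the red points lie below the black points of the same table, and vehicle levels differ between tables, as for Rdh7 and Bmp3.

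The vehicle level of the members also differed between tables. The rule used these vehicle means, and a high one helps a gene pass, so the counts are a description with no test and nothing is read from them, and tables were scaled separately. Going from D7 non-IR to D7 IR vehicle, 20 of the 64 members were at least 2-fold higher with no overlap (beside 8.03% of all 11235 genes compared), and 7 were lower (beside 7.44%). Arg2 went from 16.2 to 208 FPKM and Rdh7 from 8.24 to 83.0 FPKM. Anpep (44.7 to 259 FPKM), B4galnt1 (62.2 to 373 FPKM) and Ces2g (12.99 to 56.1 FPKM) were also higher in the irradiated vehicle group. Tmem237 (342 to 14.9 FPKM), Klhl23 (38.4 to 2.25 FPKM), Mpp4 (20.3 to 2.67 FPKM) and Ces1d (33.0 to 13.7 FPKM) were lower. Between D7 IR and D11 vehicle, 13 members were at least 2-fold higher at D11 (beside 3.51% of 11264 genes) and 7 lower (beside 3.28%). Sycn (18.1 to 134 FPKM) and Aqp1 (40.0 to 139 FPKM) were higher at D11, and Arg2 (208 to 44.1 FPKM), Rdh7 (83.0 to 28.8 FPKM) and Nat8 (44.7 to 11.1 FPKM) were lower. The summed enterocyte markers were 3784 to 3950 FPKM in D7 non-IR vehicle, 15076 to 16075 FPKM in D7 IR vehicle and 3822 to 6623 FPKM in D11 vehicle, and their part in these levels was not tested.

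The enterocyte markers (12 genes, of which Anpep is also a member) did not follow the members in every table. With TGFB1 their sum was 2227 to 2395 FPKM in D7 non-IR and 2452 to 2840 FPKM at D11, below vehicle. In D7 IR it was 22119 to 23026 FPKM, above vehicle, where the members were lower as well. The list was split there: of the 11 non-members, limma (adjusted p under 0.05) called 4 lower and 6 higher. Over all genes tested in D7 IR, 39.7% were called lower and 35.8% higher. Summed regenerative markers were 417 to 459 FPKM with vehicle and 3472 to 3628 FPKM with TGFB1 in D7 non-IR, and proliferation markers 685 to 689 against 497 to 518 FPKM. In D7 IR the proliferation markers were 579 to 602 against 201 to 233 FPKM, and at D11 they overlapped (598 to 650 against 595 to 631 FPKM). Of 10 immune markers 7 to 9 and of 10 mesenchymal markers 8 or 9 were under 1 FPKM in every library of a table. The part of these markers in the members' values was not tested.

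Other genes of the same pathways were more often called lower than higher in most families. Their lists were chosen for this tissue with earlier results of these data known, and the calls use the contrasts of the rule. The named genes were taken from those called in all 3 tables, so their p-values are a description and no independent support. Over 10 lists (all but the TGFB response), leaving the members out, limma (adjusted p under 0.05) called 188 of 278 genes lower and 59 higher in D7 non-IR, beside 34.9% lower and 33.3% higher over all genes tested. In D7 IR it called 144 of 283 lower and 92 higher, beside 39.7% and 35.8%, and at D11 171 of 280 lower and 48 higher, beside 31.6% and 32.3%. Their median changes were −0.50, −0.15 and −0.65, beside −0.02, −0.03 and 0.01 over all genes tested. Of the cytochrome P450 genes, 22 of 29, 16 of 29 and 18 of 30 fell and 3, 10 and 2 rose, and 12 fell in all 3 tables. Cyp2c55, which oxidises arachidonic acid, was among those 12 (log2 changes −2.16, −0.99 and −2.54, largest limma adjusted p 2.10e-06). Brush border genes fell in D7 non-IR (16 of 20) and at D11 (13 of 20), with 3 and 1 higher, while in D7 IR 9 of 21 fell and 10 rose. Sis, sucrase-isomaltase, fell in all 3 (log2 changes −2.63, −0.49 and −1.07, largest limma adjusted p 0.00168). In the list of arginine and urea cycle genes 14 of 22, 12 of 21 and 12 of 21 fell and 5, 6 and 4 rose, with 7 lower in all 3 tables. Oat, which interconverts ornithine and glutamate semialdehyde, fell (log2 changes −1.26, −0.84 and −2.14, largest limma adjusted p 4.04e-07), and Arg1, the cytosolic arginase, rose from low levels (log2 changes 1.29, 1.10 and 1.06, largest limma adjusted p 3.67e-05). Sat1, of polyamine breakdown, also rose (log2 changes 1.37, 2.60 and 1.28, largest limma adjusted p 1.17e-05).

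Of the lipid genes, 28 of 47 fell in D7 non-IR and 32 of 47 at D11, with 10 and 5 higher, and in D7 IR 18 of 48 fell and 16 rose. Slc27a2, a fatty acid transporter and activator, fell (log2 changes −2.04, −0.86 and −3.07, largest limma adjusted p 4.73e-08), while Apob, of chylomicrons, rose (log2 changes 0.86, 1.71 and 0.74, largest limma adjusted p 0.00373). Carboxylesterases that are no members fell in 6 of 7, 3 of 6 and 6 of 6 cases, with 2 higher in D7 IR. Glutathione genes fell in 17, 15 and 13 of 27 cases and rose in 8, 7 and 8, and Gclc, which limits glutathione synthesis, rose in all 3 (log2 changes 0.22, 0.22 and 1.47, largest limma adjusted p 0.00414). The conjugation genes fell in 12 of 16, 9 of 15 and 8 of 15 cases and rose in 3, 4 and 2. Redox and retinoid enzymes fell in 31 of 47, 29 of 49 and 29 of 48 cases and rose in 11, 15 and 10, and Aldh1a3, which makes retinoic acid, was among those that rose (log2 changes 4.85, 4.98 and 2.94, largest limma adjusted p 1.70e-07). Transporters fell in 24 of 36, 21 of 41 and 24 of 40 cases and rose in 8, 13 and 9. Those that fell included Slc1a1 (log2 changes −0.89, −2.10 and −2.51, largest limma adjusted p 3.53e-07) and the glucose transporter Slc2a2 (log2 changes −2.56, −0.59 and −1.68, largest limma adjusted p 5.04e-04). Of the intestinal transcription factors 18 of 27, 12 of 26 and 16 of 26 fell and 8, 9 and 7 rose. Nr1i3, a xenobiotic receptor, fell (log2 changes −1.54, −0.48 and −2.44, largest limma adjusted p 3.80e-05), and Gata5 rose (log2 changes 1.199, 0.90 and 1.39, largest limma adjusted p 3.00e-07). The TGFB response list, a check of the treatment, rose in 15 of 17, 17 of 20 and 15 of 20 cases, with Lama3, a laminin chain, at 5.24, 4.86 and 2.80 (largest limma adjusted p 2.02e-07). Of the same list Tgfbi, an extracellular matrix protein, fell in all 3 (log2 changes −1.16, −0.36 and −2.44, largest limma adjusted p 0.00379).

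**Figure D3:**
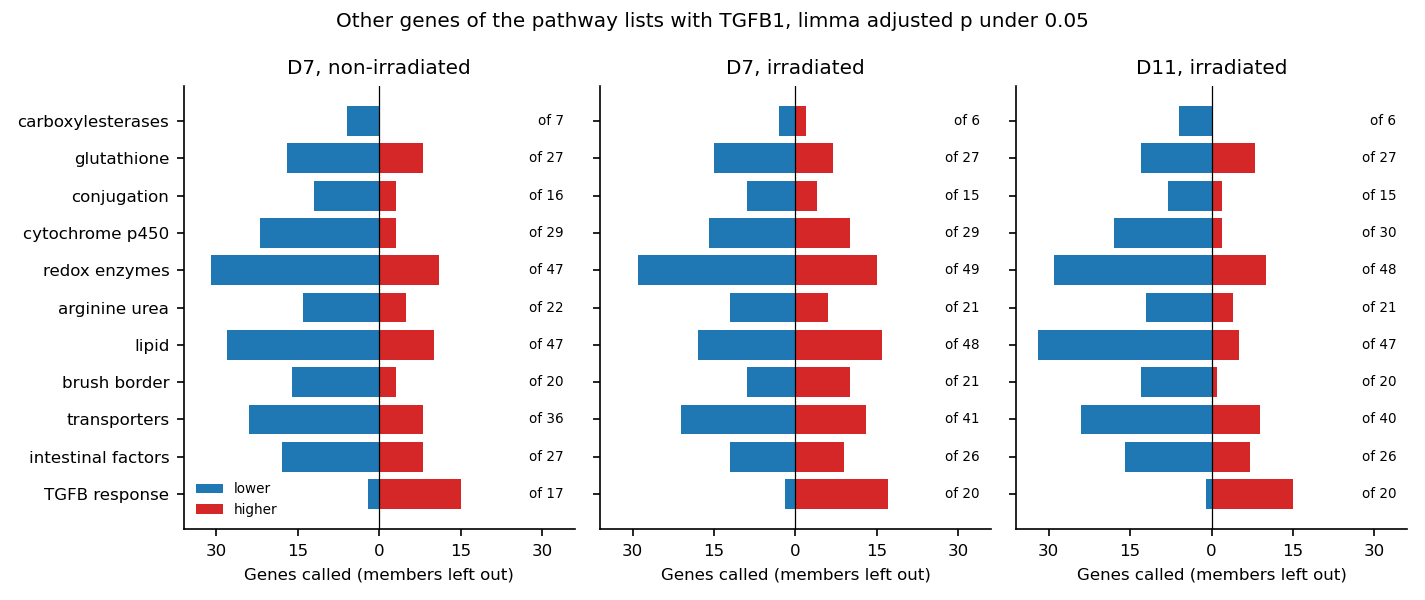
Numbers of genes called lower (blue, left) and higher (red, right) with TGFB1 by limma in each list, members left out, with the number tested at the right; both directions of the axis count genes. Lower calls outnumber higher ones in every list but the TGFB response in D7 non-IR and at D11, whereas in D7 IR 9 brush border genes were lower and 10 higher.

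The single-cell time course gave the members' course over time, in libraries the rule did not use. There was 1 library per time and no test, and values are CPM (UMIs of a gene scaled to the library total), summed over 2932, 4283, 2890 and 2218 cells, with exact Poisson 95% intervals that cover counting error only. All 64 members were found in the matrices, 4 of them under another RefSeq name, and no pair of libraries shared more than 1 cell barcode. The members summed to 6280, 5153, 4046 and 3313 CPM at 0, 6, 15 and 24 h. Of members with at least 20 CPM at 0 h or the time compared, 4 of 40 were at 50% of 0 h or less at 6 h (beside 0.368% of all 6514 genes), 12 of 39 at 15 h (beside 1.01%) and 23 of 39 at 24 h (beside 1.62%). At least 2 times 0 h stood 1 member at 6 h (beside 1.12% of genes), 0 at 15 h (beside 2.29%) and 0 at 24 h (beside 4.92%). Their median log2 ratios were −0.35, −0.66 and −1.07, beside 0.03, −0.003 and 0.02 over all genes. All 39 lay below 0 h at 24 h with intervals apart, and 23 were lower at each successive time. The other 25 members had under 20 CPM at both ends, and all 64 were lower at 24 h than at 0 h. Shares over all genes were not counted for the intervals apart, the successive times or the 64, so nothing is read from those counts. The floor of 20 CPM can be passed at 0 h alone, so the counts at 50% or less are a description.

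A few members were low at 6 h already. Akr1c14 went through 66.3, 22.2, 13.2 and 15.8 CPM at 0, 6, 15 and 24 h, with intervals of 63.2 to 69.4 at 0 h and 20.6 to 23.9 at 6 h. Rgcc (28.0, 10.2, 5.51 and 8.23 CPM), Sult1c2 (22.01, 9.56, 4.37 and 5.81 CPM) and Soat1 (98.5, 47.8, 43.2 and 43.4 CPM) were the other 3 at 50% or less by 6 h, and all 4 stood at least as high at 24 h as at 15 h. Another set held its level at 6 h and dropped later. Ces1d stood at 40.5, 40.5, 15.4 and 4.57 CPM, with intervals of 38.4 to 42.8 at 6 h and 3.85 to 5.39 at 24 h, and had the lowest share left of the 39 (11.3%). Rdh7 was at 130.4, 154, 139.7 and 64.8 CPM, above its 0 h level at 6 and 15 h and at 49.7% at 24 h. Ugt1a1 (44.9, 55.1, 45.3 and 16.2 CPM) and Arg2 (321, 356, 266 and 171 CPM) were also above 0 h at 6 h. Otc took a course between these (144, 128, 92.0 and 63.6 CPM), as did Gstm1 (779, 692, 339.8 and 271 CPM) and Gstm3 (462, 368, 166 and 134 CPM). Fkbp5, a glucocorticoid-induced chaperone, was the member at least 2 times higher at 6 h (6.33, 20.3, 2.95 and 2.99 CPM).

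By role, 12 of the 13 drug-metabolising members were at 50% or less at 24 h, the exception being Nat8 (62.4%). None of the 3 surface members with at least 20 CPM was, with Pigr at 91.5%, Anpep at 64.5% and Dpp4 at 55.6%. Under that floor, the others of that mixed role were Sycn at 30.4%, Cpn1 at 39.4% and C1rl at 72.3%. Of the members with at least 20 CPM, Pigr was the nearest to unchanged (1076, 838, 1017 and 984 CPM). In bulk, Pigr FPKM were 48.8% of vehicle in D7 IR, with the higher TGFB1 dose. B4galnt1 (126, 95.4, 102 and 111 CPM), Gpam (27.3, 40.1, 29.6 and 20.7 CPM) and Vdr (202, 156, 168 and 135 CPM) were next. The 12 enterocyte markers summed to 24537, 25939, 26011 and 21826 CPM at the 4 times, proliferation markers to 1951, 2050, 1309 and 1216 CPM, and regenerative markers to 94.4, 185, 564 and 1186 CPM. Paneth markers summed to 516, 561, 714 and 1041 CPM and enteroendocrine markers to 31.3, 29.9, 73.3 and 179 CPM. Cells had a median of 8201.5, 6709, 7805 and 10441 UMIs at 0, 6, 15 and 24 h. The median mitochondrial share of a cell's UMIs was 2.95, 3.24, 4.34 and 4.85%, and 9.12, 8.67, 9.35 and 11.96% of UMIs were in fractional entries. The part of these in the members' course was not tested.

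**Figure D4:**
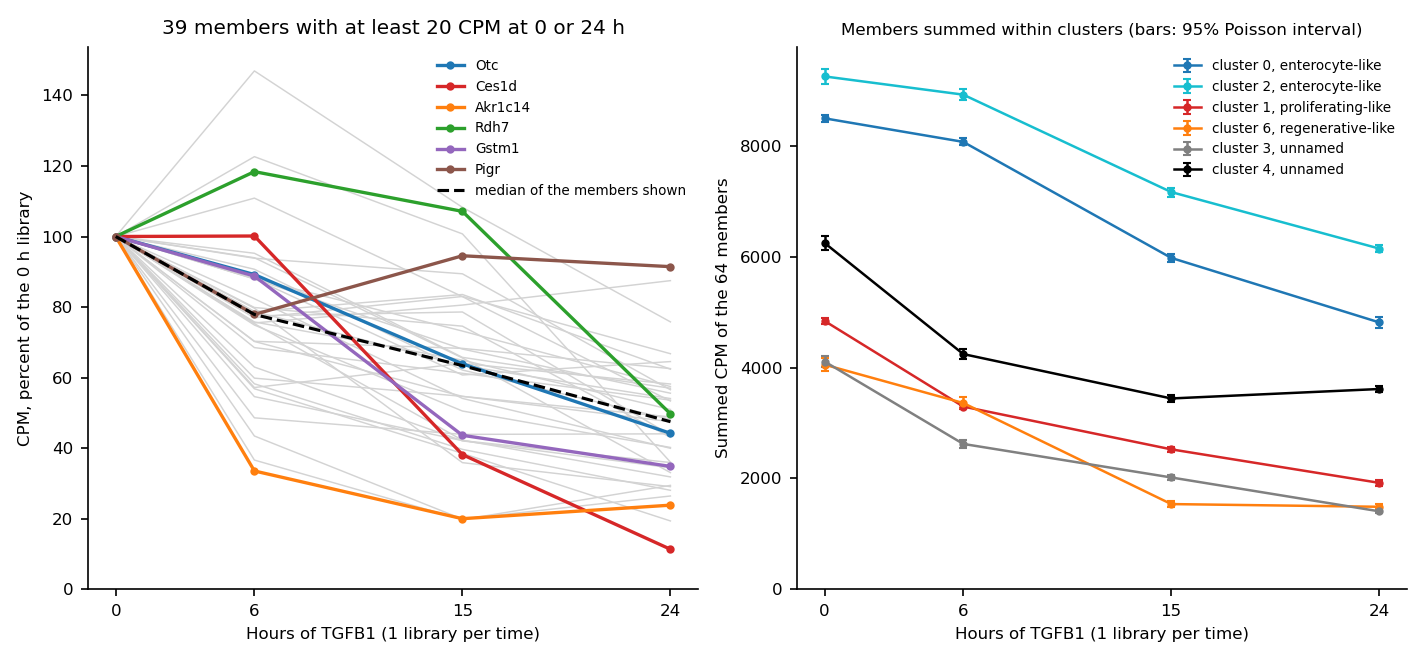
Left, CPM as a percent of the 0 h library over hours of TGFB1 for the 39 members with at least 20 CPM at 0 or 24 h (grey lines, 6 named in colour, dashed line the median). Right, summed CPM of all 64 members within 6 clusters of cells, with 95% Poisson intervals; Akr1c14 is low by 6 h, Ces1d after 6 h, and every cluster shown is lower at 24 h than at 0 h.

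To see the members within kinds of cells, the cells of the 4 libraries were clustered with the members left out. Clusters 0 and 2 were enterocyte-like, cluster 1 proliferating-like and cluster 6 regenerative-like by their markers. Cluster 0 only just passed the naming limit of 2 (median fold 2.08), with 1 enterocyte marker in its top 10 genes. Those 10 also held members such as Ces1d, Ces1f and Arg2. Cluster 2 had a median fold of 3.41 and 0 enterocyte markers in its top 10, and the enterocyte list includes the member Anpep. Clusters 3 and 4 stayed unnamed (leading genes such as Ccn2, Clu and Thbs1, and Dmbt1 and Hsd11b2). The best list of cluster 3 was the stem markers (median fold 3.24). It stayed unnamed because its top 10 genes held 1 marker of another list and 0 of its own. The best list of cluster 4, the Paneth markers, had a median fold of 0.810. Some leading genes, such as Clu, are also on the TGFB response list, so a cluster need not hold the same cells at 0 and 24 h. Enterocyte-like cells were mostly of cluster 0 at 0 h (974 of cluster 0 and 261 of cluster 2) and mostly of cluster 2 at 24 h (115 and 432), so both are given. The members summed to 8505 CPM at 0 h and 4818 CPM at 24 h in cluster 0, and to 9262 and 6152 CPM in cluster 2. In proliferating-like cluster 1 (585 and 161 cells) they summed to 4845 and 1919 CPM, and in regenerative-like cluster 6 (111 and 161 cells) to 4055 and 1487 CPM. Unnamed cluster 3 (199 and 542 cells) had 4112 and 1405 CPM, and cluster 4 (170 and 314 cells) 6254 and 3615 CPM. Members at 50% or less at 24 h were 15 of 39 in cluster 0 (beside 1.84% of all genes), 13 of 39 in cluster 2 (beside 1.75%), 26 of 37 in cluster 1 (beside 3.23%), 21 of 29 in cluster 6 (beside 6.33%), 26 of 29 in cluster 3 (beside 2.84%) and 23 of 37 in cluster 4 (beside 3.6%). In cluster 8, a mix of goblet and enteroendocrine genes (65 and 80 cells), 17 of 35 were (beside 8.65%). Rdh7, chosen after its values were seen, went the other way there. It went from 12.9 CPM (interval 5.18 to 26.5) to 27.7 CPM (15.2 to 46.5), with intervals that overlap. The counts at 50% or less took members with at least 20 CPM at 0 or 24 h in a cluster, which 0 h alone can pass.

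The members differed in where they were highest at 0 h. These places are over 7 clusters with at least 50 cells at 0 and 24 h, which leaves out cluster 5 (416 cells at 0 h, 11 at 24 h), and those of low members rest on few UMIs with overlapping intervals. Of the 64, 30 were highest in clusters 0 or 2, 9 in cluster 1, 13 in cluster 3, 6 in cluster 4 and 2 in cluster 6, with the other 4 highest in cluster 8. The same places were not counted over all genes, so these counts only describe the members. Ces1f was at 247 CPM in cluster 0 and 275 CPM in cluster 2, against 36.1 CPM in cluster 1 and 7.78 CPM in cluster 3. Gstm1 (1710.0 CPM in cluster 2 and 208 CPM in cluster 3), Rdh7 (387 and 4.95 CPM) and Arg2 (657 and 15.6 CPM) had the same order. The water channels were on the other side. Aqp1 was at 202 CPM in cluster 3 and 126 CPM in cluster 1, but 13.3 and 11.8 CPM in clusters 0 and 2. Aqp4 (77.8 CPM in cluster 3 and 2.97 CPM in cluster 0), Rgcc (74.3 and 2.25 CPM), Esrrg (30.4 and 0.712 CPM) and Rgmb (316 and 21.7 CPM) were likewise low in the enterocyte-like clusters.

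In CPM within clusters, some members were lower at 24 h everywhere and others mainly outside the enterocyte-like cells. Ces1d went from 87.0 to 10.4 CPM in cluster 0, 87.1 to 13.2 in cluster 2, 9.28 to 0.651 in cluster 1 and 26.6 to 1.88 in cluster 6. Gstm3 went from 898 to 215 CPM in cluster 0, 824 to 375 in cluster 2 and 172 to 11.1 in cluster 1. Pigr, in contrast, stood at 1424 and 1429.5 CPM in cluster 0 and 1537 and 1677 CPM in cluster 2, while it went from 823 to 319 CPM in cluster 1 and 658 to 248 CPM in cluster 3. In regenerative-like cluster 6 Pigr went from 484 to 402 CPM. Aldh1b1 (478 to 441 CPM in cluster 0, 984 to 465 CPM in cluster 1) and B4galnt1 (143 to 142 and 132 to 30.9 CPM) had the same order of clusters. Otc was lower in both, from 192 to 139.7 CPM in cluster 0 and 111 to 17.9 CPM in cluster 1. With 1 library per time, these differences between clusters have no replicate check and were not tested.

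In the crypts of irradiated mice, which received no TGFB1, the members were mostly lower. Summed, they were at 5634 CPM in the non-irradiated Ki67-RFP+ library (1846 cells) and at 2187 and 2200 CPM in the 2 irradiated libraries (719 and 699 cells). edgeR's quasi-likelihood test (Benjamini-Hochberg adjusted p under 0.05) called 44 of the 64 members lower (beside 16.7% of all 16397 genes tested) and 8 higher (beside 17.2%). The median log2 change of the members was −1.32, beside 0.00 over all genes. Both irradiated libraries lay below the non-irradiated one for 52 members and above it for 12. For this position the shares over all genes were not counted, and nothing is read from it. Of 39 members with at least 20 CPM in any library, 25 were at 50% or less with irradiation (beside 6.26% of 7015 genes). Genes can pass that floor through the non-irradiated library alone, where members that fell are high, so this count is a description. The design is 2 libraries against 1, so the lone non-irradiated library was assumed to vary like the irradiated ones.

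The 5 lowest changes in the crypts were those of Arg2, Sycn, Rdh7, Ces1e and Akr1c14. By role, 12 of 13 drug-metabolising members fell, 6 of 7 of nitrogen and amino acid metabolism, and 3 of 7 of retinoid, aldehyde and lipid metabolism (1 rose and 3 were not called). Arg2 measured 352 CPM in the non-irradiated library and 1.89 and 7.05 CPM in the irradiated ones (log2 change −6.50, edgeR adjusted p 1.05e-07). Rdh7 had 62.1 CPM in the non-irradiated library and 1.02 and 2.11 CPM in the irradiated ones (log2 change −5.50, edgeR adjusted p 2.09e-08). Ces1e had 49.2 CPM in the non-irradiated library and 0.583 and 2.51 CPM in the irradiated ones (log2 change −5.20, edgeR adjusted p 3.36e-07), and its neighbours Ces1d (log2 change −4.42, edgeR adjusted p 1.11e-07) and Ces1f (log2 change −2.75, edgeR adjusted p 1.32e-07) fell too. Akr1c14 (log2 change −4.79, edgeR adjusted p 4.12e-07) and Gstm3 (log2 change −3.80, edgeR adjusted p 5.78e-08) are of the same role, in which DESeq2 did not call Gstm4 (adjusted p 0.227), Nat8 (0.214) or Sult1c2 (0.0548). Sycn had 11.8 CPM in the non-irradiated library and 0 and 0.405 CPM in the irradiated ones (log2 change −6.06, edgeR adjusted p 3.56e-06). A DESeq2 fit did not call Sycn (adjusted p 0.282), and with so few UMIs its fitted change depends on the prior count. Bmp3 had 32.1 CPM in the non-irradiated library and 1.24 and 2.11 CPM in the irradiated ones (log2 change −4.45, edgeR adjusted p 1.03e-07). Otc went from 250.01 CPM to 40.9 and 42.9 CPM (log2 change −2.75, edgeR adjusted p 4.83e-08). All 5 channels and transporters fell, among them Aqp1 (log2 change −0.85, edgeR adjusted p 5.58e-04) and Slco2b1 (log2 change −4.21, edgeR adjusted p 2.57e-08), but DESeq2 did not call Aqp4 (adjusted p 0.0592) or Slc35f2 (0.198). Among the most abundant members, Pigr (1528 CPM in the non-irradiated library and 398 and 366 CPM in the irradiated ones; log2 change −2.18, edgeR adjusted p 2.11e-07) and Aldh1b1 (1002 CPM in the non-irradiated library and 242 and 181 CPM in the irradiated ones; log2 change −2.42, edgeR adjusted p 5.05e-07) fell, as did Vdr (log2 change −2.41, edgeR adjusted p 2.43e-07) and Cth (log2 change −2.16, edgeR adjusted p 2.78e-07).

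The 8 members that rose in irradiated crypts, and so went the other way from the organoids with TGFB1, were Rgcc, Pbld1, Ephx1, Pck2, Cpn1, Tcf23, Fkbp5 and Soat1. Pbld1 had 49.7 CPM in the non-irradiated library and 201 and 200.2 CPM in the irradiated ones (log2 change 1.84, edgeR adjusted p 2.66e-06). Ephx1 had 21.7 CPM in the non-irradiated library and 80.4 and 108 CPM in the irradiated ones (log2 change 1.94, edgeR adjusted p 8.48e-06), whereas in the organoid cells it was at 122, 92.0, 51.6 and 38.9 CPM over the time course. Pck2 had 78.0 CPM in the non-irradiated library and 228 and 188 CPM in the irradiated ones (log2 change 1.24, edgeR adjusted p 1.34e-04), and Rgcc had 11.7 CPM in the non-irradiated library and 55.8 and 49.2 CPM in the irradiated ones (log2 change 1.99, edgeR adjusted p 3.35e-06). Cpn1 was low (0.660 CPM in the non-irradiated library and 4.73 and 3.00 CPM in the irradiated ones). Soat1 was the weakest call (log2 change 0.49, edgeR adjusted p 0.045), and DESeq2 called neither it (adjusted p 0.191) nor Tcf23 (adjusted p 0.187). Anpep was not called (edgeR adjusted p 0.0538), and its irradiated libraries were 30.6 and 131 CPM against 176 CPM. Of the 23 members at 50% or less at 24 h in the organoid cells, 20 fell and 3 rose in the crypts.

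Marker sums moved with irradiation in these libraries as well. The 12 enterocyte markers were at 4709 CPM without irradiation and at 1098 and 2971 CPM with it, the 10 Paneth markers at 2672, 749 and 946 CPM, and the 10 stem cell markers at 2354, 1553 and 1089 CPM. Regenerative markers were at 19.3, 517 and 646 CPM and proliferation markers, among them the sorted gene Mki67, at 3222, 2981 and 2581 CPM. The enterocyte markers differed by more than 2-fold between the 2 irradiated libraries, while the members' sums did not. UMIs in fractional entries, which are shared between genes, were 14.4% of the non-irradiated library and 21.97 and 20.6% of the irradiated ones. With whole entries alone edgeR called 41 of 63 members lower and 5 higher. The part of the markers in the members' changes was not tested.

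**Figure D5:**
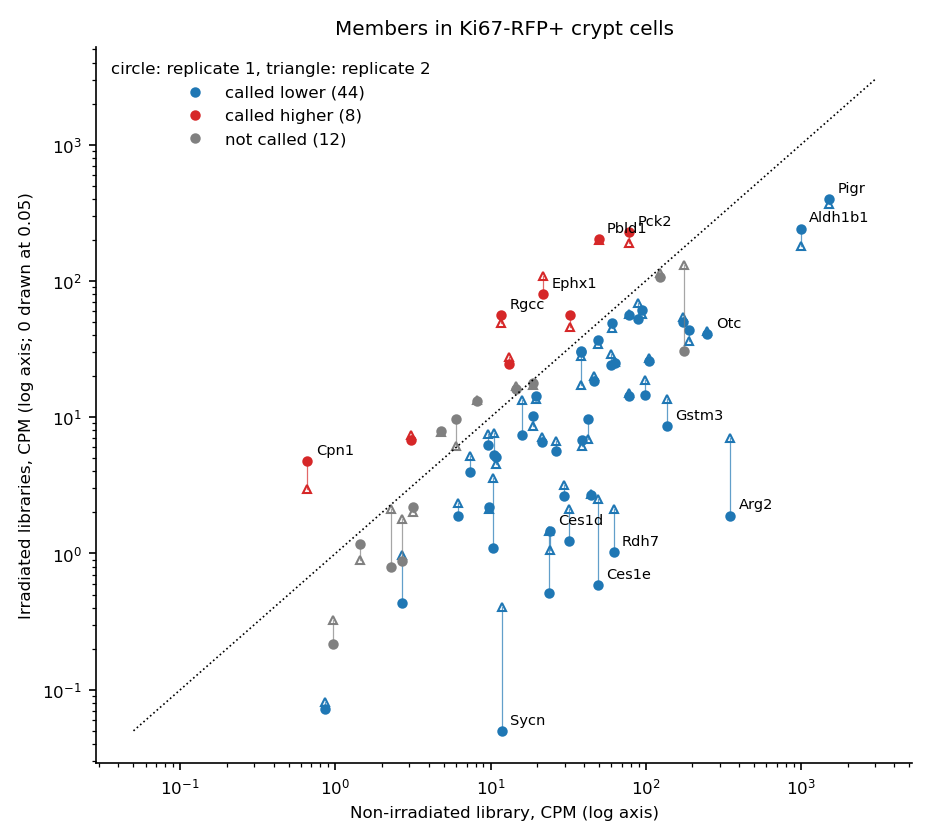
CPM of each member in the non-irradiated Ki67-RFP+ library (x axis) and in the irradiated libraries (y axis; circle replicate 1, open triangle replicate 2, joined by a line), both log axes, with equality dotted. Blue members were called lower (44), red higher (8) and grey neither (12); Arg2 and Rdh7 lie far below the line and Pbld1 above it.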

How the data were processed

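Bulk RNA values are FPKM deposited by the authors, 1 table per condition; Cuffnorm 2.2.1 and TopHat2 2.1.0 are named in the submitters' processing notes without a role. FPKM keep no read depth, so the depth of these libraries is unknown here. The deposited matrices of single cells give expected counts (UMIs), with fractions for UMIs shared between genes. ATAC peak lists were deposited by the authors with a −log10 q score per peak; they are not used, since only 4.84 to 9.10% of GRCm38 start sites held a peak within 1000 bases and a peak on chromosome 1 ended at 197175936, beyond the last promoter of that build (195176969). The members and gene lists were chosen with earlier results of these data known.

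Members were taken by the rule on log2(FPKM + 1), dropping 5 symbols of microRNAs and predicted genes. Any member is named by its role; libraries are listed for the 12 members with the lowest median change, and non-members are at most 2 per list and direction called in all 3 tables. Non-members were tested in limma 3.58.1 (trend, robust, R 4.3.3, mean of at least 1 FPKM, two-sided, Benjamini-Hochberg over all genes). On data simulated for D7 non-IR, with 200 of 11330 genes changed, the same steps were tested before use. Barcodes needed 500 UMIs, 250 genes and a mitochondrial share of at most 20%, doublets were neither called nor removed, and counts were summed per library (1.23e+07 to 3.24e+07 UMIs). Sums of the crypt libraries were rounded and tested in edgeR 4.0.16 (TMM, filterByExpr), also on simulated data, with DESeq2 1.42.0 as an alternative. Clusters used scanpy 1.11.5 (2000 variable genes without members, 15 neighbours on 30 components) and, at resolution 0.6, leidenalg 0.10.2. A cluster was named where its best marker list had a median fold of at least 2, unless 5 or more of its top 10 genes were predicted or pseudogenes, or other markers outnumbered its own; the limit on pseudogenes was set after the data were seen. Unnamed clusters held 34.1, 36.4, 45.7 and 60.8% of cells at 0, 6, 15 and 24 h. No column was left unmapped.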

Additional observations from a re-analysis of the deposited data

How the results depend on the processing

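Of 149 recomputed values, 134 stayed close to those reported (counts within 1.5 times, shares within their interval). The rule gave 39 members with a mean of at least 5 FPKM and 96 with a pseudocount of 0.1 FPKM, and 62 to 68 when 1 library at a time was left out. Leaving out a library gave 182 to 186, 137 to 143 and 161 to 179 pathway genes lower in the 3 tables (same order as above), and 54 to 59, 88 to 92 and 37 to 54 higher. Replicate numbers did not pair the samples (correlations of deviations from −0.086 to 0.213), and with the replicate number as a block 187, 145 and 177 pathway genes were lower. With a 1.5-fold limit, 18 members were lower in D7 IR than in D7 non-IR vehicle, and 24 higher and 11 lower at D11 than in D7 IR vehicle. With a floor of 50 CPM, 2, 7 and 14 members were at 50% or less at 6, 15 and 24 h, and with a looser limit on the drop 10, 25 and 35 were low. Leaving out the cells of 4 clusters led by short RNAs or pseudogenes (402 cells at 24 h), a choice made after seeing the data, gave 4, 13 and 23. In the crypts, DESeq2 called 31 members lower and 6 higher (over all genes 1412 and 1613, against 2733 and 2815 by edgeR), and whole entries alone gave 5 higher; each irradiated library alone put 25 of 39 members at 50% or less. The members' summed CPM at 24 h was 67.3% of 0 h in enterocyte-like cells (1235 cells at 0 h). It was 72.7% at resolution 1.0 (395 cells) and 73.9% with 1000 variable genes (750 cells), so the class held different cells. Taken apart, cluster 0 was at 56.6% and cluster 2 at 66.4%, both below the pooled 67.3%, and the mix of these clusters changed with time. The share was 39.6% in proliferating-like cells (41.7% at resolution 1.0) and 36.7% in regenerative-like cells (30.2% with 1000 variable genes, and no value at resolution 1.0, where no such class had enough cells). Depth limits the single-cell values of the 25 members under 20 CPM. The alternatives for ATAC promoters were not run.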

Other observations

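Among 6916 non-members at 10 FPKM or more on average, the 10 whose course over the 18 libraries was most like the members' mean were Pycrl, Slc39a14, Erlin1, Idh3b, Mgst1, Papss1, Baiap2l2, Slc25a39, Psrc1 and Clstn1. The correlation, on log2(FPKM + 1) centred within each table, was 0.993 for Pycrl and 0.987 for Clstn1 (Pearson, 18 libraries, with no p because the members define the profile and all points share the TGFB1 contrast). Pycrl, an enzyme of proline synthesis, had changes of −1.03, −0.91 and −1.31, and Slc39a14, a zinc and manganese transporter, of −0.92, −0.94 and −1.22. Idh3b (−0.58, −0.67 and −0.80) is a subunit of a citric acid cycle enzyme, Papss1 (−0.65, −0.63 and −0.69) makes the sulfate donor of sulfotransferases, and Mgst1 (−1.002, −0.64 and −0.97) is a microsomal glutathione transferase.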
